A study of Mus musculus with 8 samples.

Results

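The 10 genes described here encode enzymes that make ceramide or convert it, and they were taken by name from a table of 13996 genes measured in mouse brain cortex. All 10 were listed, 1 entry each, and 10 passed the filter on low values. The mice were male C57BL/6, 8 weeks old at the start, and received a conventional diet (normal, 4 mice) or a diet with 60% fat by weight (high fat diet, HFD, 4 mice) for 8 weeks, so that all were 16 weeks old at sampling. The HFD mice were described as heavier and impaired in glucose tolerance. RNA depleted of ribosomal RNA was sequenced from the brain cortex of each mouse. Levels are given as FPKM, fragment numbers scaled for transcript length and library size, so that levels can be compared between genes. The question was which of these enzymes had a different transcript level after the high fat diet.

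Ceramide is the hub of sphingolipid metabolism. Serine palmitoyltransferase joins serine and palmitoyl-CoA in the endoplasmic reticulum, ceramide synthases attach a fatty acid whose length depends on the synthase, and dihydroceramide desaturase introduces the double bond that turns dihydroceramide into ceramide. Ceramide is then built into sphingomyelin or glycosphingolipids, among them the galactolipids that are abundant in myelin, and lysosomal enzymes release it again and split it to sphingosine.

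Degs1, the dihydroceramide desaturase, and Cers2, the ceramide synthase for very long acyl chains, fell in HFD mice by 23.9% and 27.0%, and Cers4, a ceramide synthase for long acyl chains, rose by 20.7%. Thus 3 of 10 genes passed the test, 2 lower and 1 higher, which is 30% against 33.1% of the 13982 genes tested (15.3% lower and 17.7% higher). The share among these enzymes was therefore close to that of all genes. None of the 10 changed by more than 1.5-fold in either direction, whereas 7.13% of all genes did so and passed the test. This limit is a rise of 50%, or a fall by the same ratio, which is a fall of less than 50%. The FPKM values of both diets did not overlap for 3 of the 10 genes, compared with 31.9% of all genes. Rising and falling refer here to an adjusted p below 0.05 in limma on log2(FPKM + 0.1), two-sided and adjusted by Benjamini-Hochberg over all genes tested, and differences are HFD minus normal on that scale. Their median was -0.056 for the 10 genes and 0.003 for all genes.

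The promoters of the 3 genes that passed are shown because these are the genes on which the results turn. They are RefSeq windows on GRCm38.p6, from 250 bases before to 50 bases after an annotated start, and capitals mark the E-box letters CACGTG, which read the same on both strands. The window of Degs1 is chr1:182282146-182282445 on the minus strand, that of Cers2 is chr3:95314940-95315239 and that of Cers4 is chr8:4493155-4493454, both on the plus strand. The gene spans given below, from another annotation, begin upstream of these windows, so all 3 windows lie inside those spans.
Degs1: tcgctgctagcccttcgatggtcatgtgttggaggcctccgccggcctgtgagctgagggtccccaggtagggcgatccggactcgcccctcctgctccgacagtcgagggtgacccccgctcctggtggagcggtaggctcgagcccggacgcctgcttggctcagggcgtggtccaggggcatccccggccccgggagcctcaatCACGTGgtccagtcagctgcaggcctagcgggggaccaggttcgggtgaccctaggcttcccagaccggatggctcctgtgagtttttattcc
Cers2: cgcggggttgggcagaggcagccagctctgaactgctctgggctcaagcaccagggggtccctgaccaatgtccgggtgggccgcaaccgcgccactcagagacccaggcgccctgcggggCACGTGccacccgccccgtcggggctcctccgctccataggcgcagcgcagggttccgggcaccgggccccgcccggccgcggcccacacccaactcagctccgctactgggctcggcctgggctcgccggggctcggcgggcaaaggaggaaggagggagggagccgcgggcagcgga
Cers4: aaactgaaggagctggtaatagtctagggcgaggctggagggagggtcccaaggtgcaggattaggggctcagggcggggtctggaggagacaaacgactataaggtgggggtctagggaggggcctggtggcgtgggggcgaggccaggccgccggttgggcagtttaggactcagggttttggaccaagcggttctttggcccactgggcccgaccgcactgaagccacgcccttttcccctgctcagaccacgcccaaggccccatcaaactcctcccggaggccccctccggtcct
The E-box letters begin 43 bases before the start in Degs1 and 129 bases before it in Cers2, and they are not in the window of Cers4 or in a further Cers2 window. Windows were given for 9 of the 10 genes, with Asah1 as the exception, and 3 of the 9 hold these letters, the other being Cers6, which did not pass the test. Among all 27025 genes with a window 8.09% hold them in at least 1 window. The letters of the GC box, CCAAT box and TATA box were searched too and are not described here. The E-box letters were chosen after the sequences had been read, and a match is a description of the window.

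**Figure D1:**
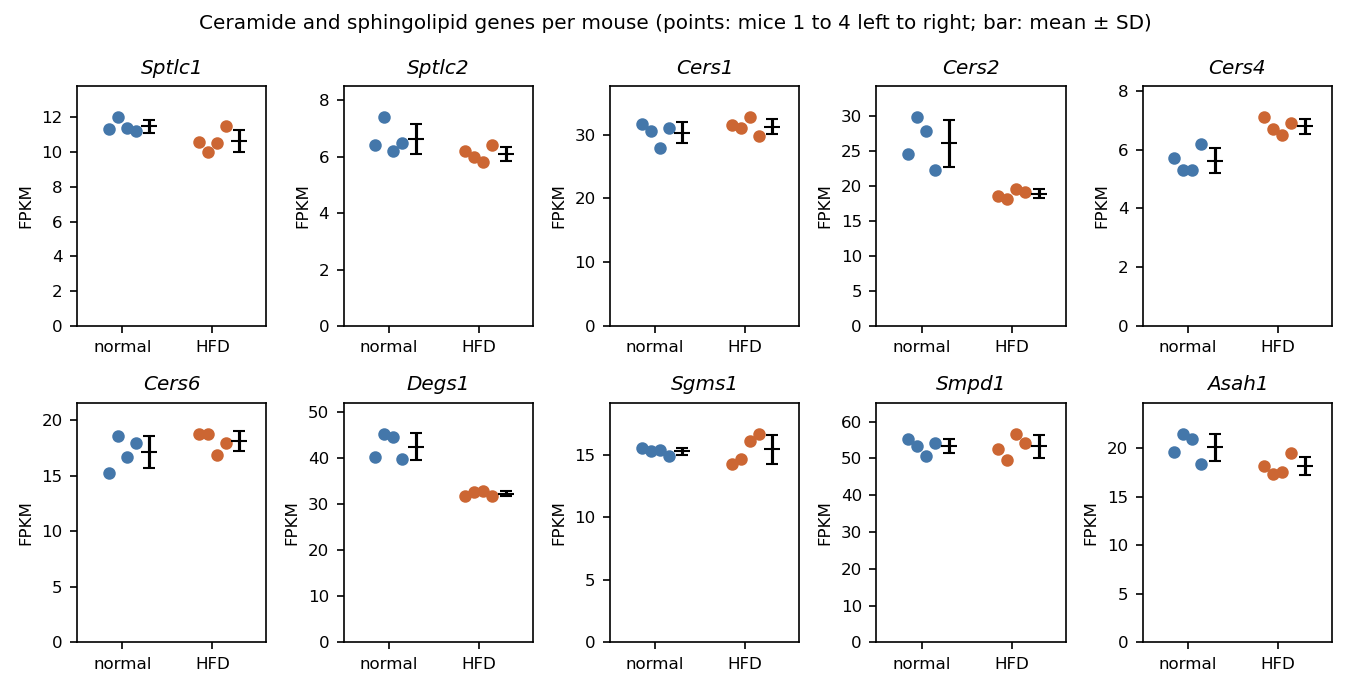
FPKM of each of the 10 genes in each mouse, with an axis from 0, points for normal mice 1 to 4 (blue) and HFD mice 1 to 4 (orange), and the mean ± SD beside them. Degs1 and Cers2 lie lower and Cers4 lies higher in each HFD mouse than in each normal mouse, and the other 7 genes overlap.

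Ordered by level, Smpd1 was the most abundant of the 10 transcripts on both diets, with a mean of 53.4 FPKM in normal mice and 53.3 in HFD mice. Degs1 came next, followed by Cers1, Cers2, Asah1, Cers6, Sgms1 and Sptlc1, and the lowest levels were those of Sptlc2 and Cers4. In normal mice the ranges of Cers1 and Cers2 overlapped, as did those of Asah1 and Cers6 and those of Cers6 and Sgms1, and Sptlc2 and Cers4 met at 6.2 FPKM. In HFD mice Degs1 had come down to the range of Cers1 (31.8 to 32.8 against 29.7 to 32.7), and Cers2 to the range of Asah1 (18.2 to 19.6 against 17.4 to 19.5). Cers4, the lowest of the 10 in normal mice, stood above Sptlc2 in HFD mice, where its 4 values of 6.5 to 7.1 FPKM lay above 5.8 to 6.4.

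For the first step of the pathway, neither of the core subunits passed the test, and the small subunits of this enzyme are given further below. Sptlc1 and Sptlc2, the subunits that form the core of serine palmitoyltransferase, were 11.5 ± 0.359 and 6.62 ± 0.532 FPKM in normal mice (SD, n = 4) and 10.7 ± 0.624 and 6.10 ± 0.258 in HFD mice. The differences were -0.11 for Sptlc1 (95% interval -0.23 to 0.02, limma adjusted p = 0.169) and -0.11 for Sptlc2 (95% interval -0.28 to 0.05, limma adjusted p = 0.241), so both intervals include 0 and a decrease of up to 0.23 or 0.28. Sptlc2 stood at 57.7% ± 3.05 of the Sptlc1 level in normal mice and 57.3% ± 2.29 in HFD mice.

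Ceramide synthases differed among themselves. Cers2 was 24.5, 29.8, 27.8 and 22.2 FPKM in normal mice 1 to 4 and 18.6, 18.2, 19.6 and 19.2 in HFD mice 1 to 4. Each HFD mouse lay below each normal mouse, and the normal mice were spread more widely than the HFD mice. The mean fell from 26.1 ± 3.38 to 18.9 ± 0.622, a log2 difference of -0.45 (standard error 0.09, limma adjusted p = 0.00429). Leaving out single mice gave values from -0.53 to -0.39. In whole tissue, fewer cells that express a gene and less of its RNA per cell cannot be told apart.

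Cers4 moved the opposite way. Its level was 5.7, 5.3, 5.3 and 6.2 FPKM in normal mice 1 to 4 and 7.1, 6.7, 6.5 and 6.9 in HFD mice 1 to 4. All HFD mice lay above all normal mice, the closest of them at 6.5 and 6.2. The mean rose from 5.62 ± 0.427 to 6.80 ± 0.258, a log2 difference of 0.27 (standard error 0.07, limma adjusted p = 0.0166). Leaving out single mice, the call held 8 of 8 times in limma, with an adjusted p of up to 0.0486.

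Cers1, the synthase that prefers stearoyl-CoA and is the main one of neurons, had 27.9 to 31.7 FPKM on the normal diet and 29.7 to 32.7 on the high fat diet, a difference of 0.05 (95% interval -0.07 to 0.16, limma adjusted p = 0.534). Of the 2728 exon bases of Cers1, 1349 are annotated also for Gdf1 on the same strand, so its level can include reads of Gdf1. Cers6, which prefers palmitoyl-CoA, had 15.3 to 18.6 and 16.9 to 18.8, a difference of 0.08 (95% interval -0.07 to 0.24, limma adjusted p = 0.381). Neither passed the test.

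Taking the ceramide synthases as parts of a whole removes any scaling between mice. Cers2 made up 27.1%, 30.5%, 30.5% and 24.3% of the summed FPKM of Cers1, Cers2, Cers4, Cers5 and Cers6 in normal mice 1 to 4, and 21.0%, 20.8%, 22.3% and 22.2% in HFD mice 1 to 4. The share was lower in each HFD mouse, and its mean went from 28.1% ± 2.98 to 21.6% ± 0.798. The share of Cers4 was 6.09% ± 0.598 in normal mice and 7.77% ± 0.282 in HFD mice, again without overlap. Shares of Cers1 (32.7% ± 2.13 and 35.7% ± 1.2), Cers5 (14.6% ± 0.555 and 14.2% ± 0.383) and Cers6 (18.5% ± 1.2 and 20.7% ± 1.0) overlapped between diets. The summed level was 92.6 ± 3.47 FPKM in normal mice and 87.5 ± 0.954 in HFD mice. No test was made on these shares, which are not independent of the levels above.

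**Figure D2:**
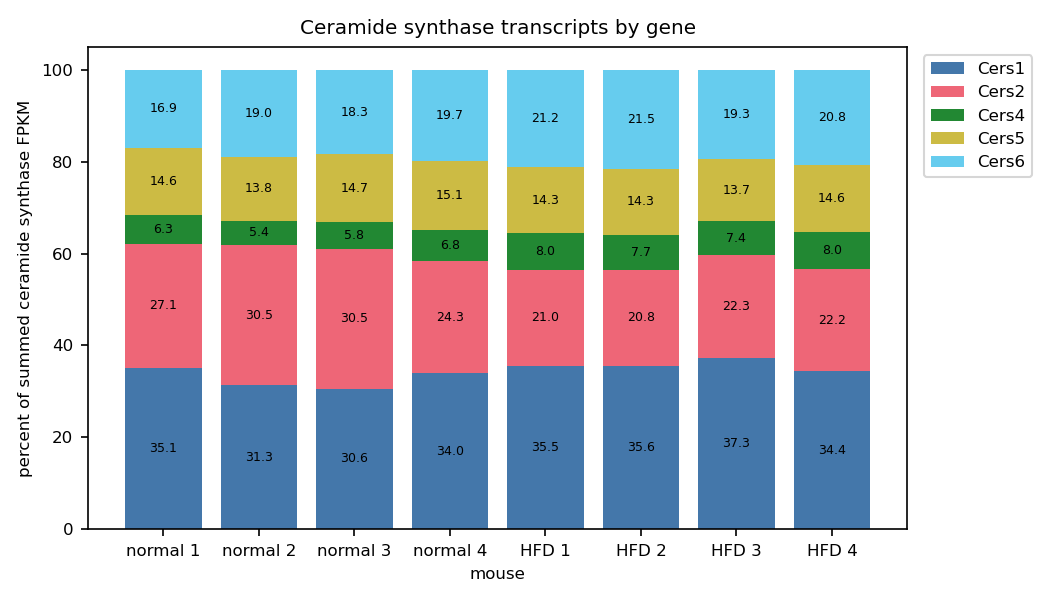
Percent of the summed ceramide synthase FPKM that each of 5 genes contributes, as a stacked bar per mouse, with the percentages printed in the bars. The Cers2 segment is 24.3% to 30.5% in the 4 normal mice and 20.8% to 22.3% in the 4 HFD mice, and the Cers4 segment is 5.4% to 6.8% and 7.4% to 8.0%.

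Degs1 acts after the synthases and had the smallest p of the 10 genes. Its FPKM was 40.3, 45.3, 44.7 and 39.8 in normal mice 1 to 4 and 31.8, 32.6, 32.8 and 31.9 in HFD mice 1 to 4. The diets were separated by a gap of several FPKM, and the HFD mice lay close to each other. The log2 difference was -0.39 (95% interval -0.51 to -0.28, limma adjusted p = 0.00114), and by its p Degs1 ranked 308 among all genes tested. Relative to the summed ceramide synthases, Degs1 stood at 45.9% ± 2.38 in normal mice and at 36.9% ± 0.718 in HFD mice.

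Of the 10 genes, those that use or release ceramide, Sgms1, Smpd1 and Asah1, did not pass the test. Sgms1, which makes sphingomyelin in the Golgi apparatus, was 15.3 ± 0.294 FPKM in normal mice and 15.4 ± 1.14 in HFD mice, a difference of 0.01 (95% interval -0.12 to 0.14, limma adjusted p = 0.898). Smpd1, the lysosomal acid sphingomyelinase, was 53.4 ± 1.9 and 53.3 ± 3.03, with a 95% interval of the difference of -0.12 to 0.11. For both genes the spread among HFD mice was larger than that among normal mice. Asah1, the lysosomal acid ceramidase, had 19.6, 21.5, 21.0 and 18.4 FPKM in normal mice 1 to 4 and 18.2, 17.4, 17.6 and 19.5 in HFD mice 1 to 4. Normal mouse 4 and HFD mouse 4 crossed over, and the difference of -0.15 (standard error 0.06) had a limma adjusted p = 0.1. Without normal mouse 4 the difference was -0.19 and the adjusted p 0.0415, so this call depends on 1 mouse.

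Among 59 further genes of sphingolipid metabolism listed by role, 52 were in the table and tested, and 15 passed, 11 lower and 4 higher, or 28.8%. With the 10 genes, 18 of 62 passed, 13 lower and 5 higher, and the median difference was -0.041. This was again near the share among all genes. The count was 0 of 62 in limma with the cerebellum, striatum or myelin list as a covariate, where 9, 1 and 8 had an unadjusted p below 0.05. Of all genes, 543, 0 and 6 passed in these fits. Without normal mice 2 and 3, which was tried only after the data had been seen, 8 of the 62 passed, and of all genes 2736 of 13904.

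De novo synthesis held the largest number. Of its 15 genes 9 passed, 7 lower and 2 higher, with a median difference of -0.115. Beside this list and those below, 33.1% of all genes passed, 15.3% lower and 17.7% higher. No list was tested as a set. Besides Cers2 and Degs1, the falling genes were small regulators of serine palmitoyltransferase. The ORMDL proteins inhibit this enzyme, and Ormdl1 (-0.37, adjusted p = 0.0373), Ormdl2 (-0.65, adjusted p = 0.0202) and Ormdl3 (-0.17, adjusted p = 0.0281) all fell in limma. The small activating subunits fell too. Sptssa went from 15.8 ± 0.377 to 11.9 ± 0.727 FPKM (-0.41, limma adjusted p = 0.00122) and had no overlap between diets, and Sptssb went from 3.17 ± 1.37 to 1.40 ± 0.183 (-1.02, limma adjusted p = 0.0271) with overlapping values. Both inhibitors and activators of the enzyme were therefore among the lower genes, while Sptlc1 and Sptlc2 did not pass. Ormdl1 also overlapped between diets (3.8 to 5.3 FPKM in normal mice, 3.4 to 4.2 in HFD mice). For Sptssb the normal mice 1 to 4 had 2.6, 4.3, 4.3 and 1.5 FPKM. Normal mouse 4 thus lay within the HFD range of 1.2 to 1.6. Degs2, the second desaturase, which also makes phytoceramide, rose from 1.27 ± 0.222 to 1.80 ± 0.271 FPKM (0.47, limma adjusted p = 0.0488), a level at which rounding to 0.1 limits the precision.

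In the sphingomyelin list 1 of 7 genes passed, Smpd4, a neutral sphingomyelinase, which rose from 11.0 ± 1.1 to 14 ± 0.622 FPKM (0.35, limma adjusted p = 0.00709). Of 14 genes of ceramidases and sphingosine 1-phosphate 3 fell and 1 rose. S1pr5, the sphingosine 1-phosphate receptor of oligodendrocytes, fell from 8.45 ± 1.24 to 5.25 ± 0.545 FPKM (-0.67, limma adjusted p = 0.00301), and the Golgi ceramidase Acer2 fell from 1.65 ± 0.342 to 0.975 ± 0.171 (-0.70, limma adjusted p = 0.018). S1pr1, another receptor, fell by 0.12 on the log2 scale (limma adjusted p = 0.0436), and Spns2, an exporter of sphingosine 1-phosphate, rose by 0.27 (limma adjusted p = 0.0426).

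Glycosphingolipid synthesis contained the largest decrease of all 62 genes. Ugt8a, which adds galactose to ceramide for the main myelin glycolipid, was 22.5 to 38.3 FPKM in normal mice and 13.6 to 18.3 in HFD mice (-1.04, standard error 0.16, limma adjusted p = 0.00172). Fa2h, which hydroxylates the fatty acid of these lipids, fell from 10.8 ± 2.38 to 5.85 ± 0.656 (-0.86, limma adjusted p = 0.00298). Gal3st1, the next enzyme on the route to sulfatide, had overlapping values and a difference of -0.28 (limma adjusted p = 0.141). B4galnt1, a ganglioside synthase, rose from 32.7 ± 3.13 to 42.1 ± 3.39 (0.36, limma adjusted p = 0.00843), and in all 3 of 14 genes passed. Of 12 genes of glycosphingolipid breakdown 1 passed, Gm2a, the GM2 activator, with -0.25 (limma adjusted p = 0.018).

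**Figure D3:**
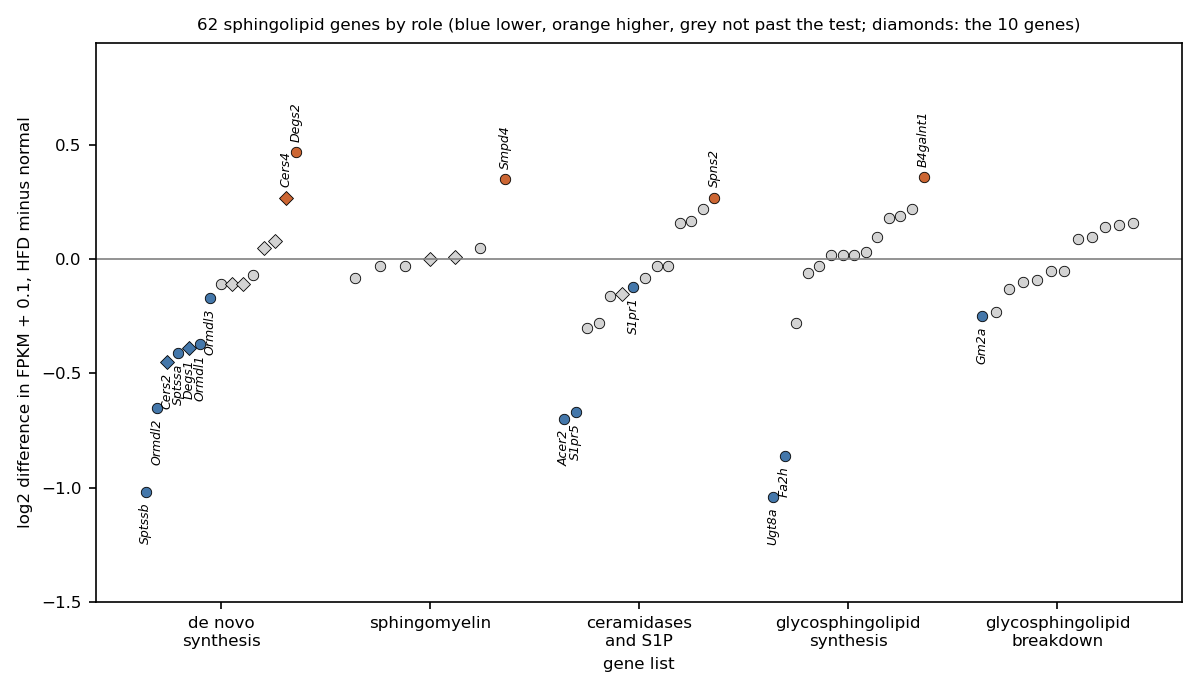
Log2 difference in FPKM + 0.1, HFD minus normal, of 62 sphingolipid genes in 5 lists by role, sorted within each list, with genes that passed the test named (blue lower, orange higher) and diamonds for the 10 genes above. Decreases reach -1.04 for Ugt8a and -1.02 for Sptssb, and the highest increase is 0.47 for Degs2.

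Markers of other tissue moved with the diets. The cerebellum list had a mean log2(FPKM + 0.1) of 1.25, 4.61, 5.04 and 3.08 in normal mice 1 to 4 and of 0.28 to 0.72 in HFD mice, with 5 of 8 tested genes lower and Gabra6 listed at 0 in an HFD mouse. The striatum list was at 4.41 to 5.28 in normal mice and 2.57 to 2.70 in HFD mice, with 9 of 9 genes lower and none listed at 0. The thalamus list was at 2.26 to 3.80 and 1.69 to 1.95, with 3 of 9 tested genes lower, among them Calb2, which the cerebellum list also holds, and Shox2 listed at 0 in an HFD mouse. Cortical neuron markers such as Slc17a7 were present in each mouse at 4.43 to 4.97 in normal mice and 5.09 to 5.43 in HFD mice, with 6 of 10 genes higher and 1 lower. The myelin list, which includes Mbp and Mobp, was at 6.75, 6.95, 6.81 and 6.33 in normal mice 1 to 4 and at 5.83, 5.76, 6.24 and 5.82 in HFD mice 1 to 4, with 10 of 10 genes lower and none listed at 0.

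Within the normal diet, mice 2, 3, 1 and 4 stood in this order from high to low for the myelin list, for Cers2 and for Degs1. For Cers4 the order was the opposite, with normal mice 2 and 3 tied at the lowest value. HFD mouse 3, the highest of its diet in the myelin list, had the highest Cers2 and Degs1 and the lowest Cers4 of the HFD mice, while HFD mouse 2, the lowest of its diet in the myelin list, had the lowest Cers2 but more Degs1 and less Cers4 than HFD mice 1 and 4. These orders are over 4 mice each and describe bulk levels only. The closest mice of different diets in the myelin list, normal mouse 4 and HFD mouse 3, had 22.2 and 19.6 FPKM of Cers2, 6.2 and 6.5 of Cers4, and 39.8 and 32.8 of Degs1. Normal mouse 1 had the lowest cerebellum list of its diet and the highest striatum list of all mice, 5.28, with 40.3 FPKM of Degs1 and 24.5 of Cers2. The part of tissue content in these levels was not tested.

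**Figure D4:**
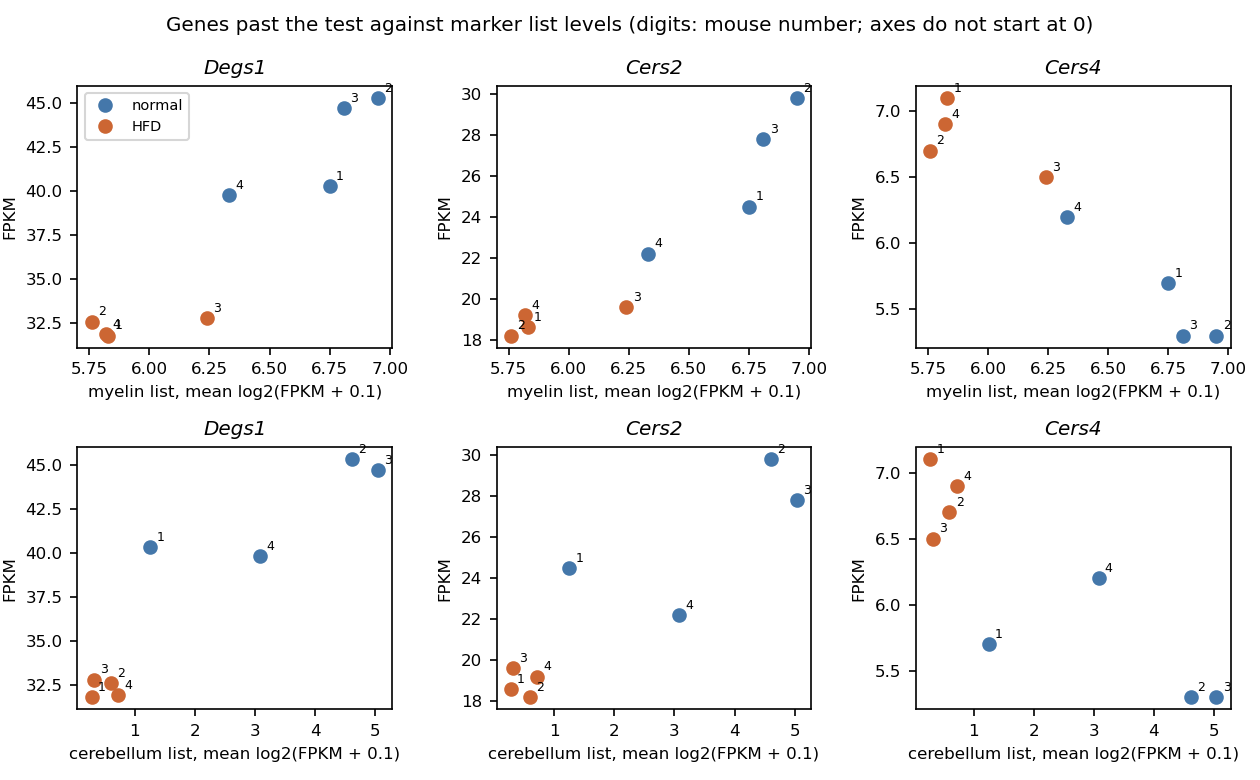
FPKM of Degs1, Cers2 and Cers4 in each mouse (digits 1 to 4) against the mean log2(FPKM + 0.1) of the myelin list (top) and the cerebellum list (bottom), with axes that do not start at 0. The myelin list is 6.33 to 6.95 in normal mice (blue) and 5.76 to 6.24 in HFD mice (orange), and among normal mice Cers2 stands in the order of the myelin list and Cers4 in the opposite order.

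With the level of a marker list added to the limma fit, the diet differences of these 3 genes became smaller and less precise. With the cerebellum list they were -0.25 for Degs1 (95% interval -0.41 to -0.09, adjusted p = 0.0815), -0.24 for Cers2 (95% interval -0.51 to 0.04, adjusted p = 0.281) and 0.16 for Cers4 (95% interval -0.10 to 0.43, adjusted p = 0.44). With the myelin list they were -0.24 for Degs1 (95% interval -0.47 to -0.01, adjusted p = 0.333), -0.09 for Cers2 (adjusted p = 0.794) and 0.04 for Cers4 (adjusted p = 0.925). In limma, 0 of the 10 genes then passed the adjusted threshold in either fit, and 1, Degs1, had an unadjusted p below 0.05 in both. The levels of the cerebellum, myelin and striatum lists do not overlap between the diets, so diet and tissue content cannot be told apart in these fits. Without normal mice 2 and 3, which had the highest cerebellum list, Degs1 was at -0.31 (limma adjusted p = 0.00573) and Cers2 at -0.30 (adjusted p = 0.015). Cers4 at 0.19 no longer passed (adjusted p = 0.117). Normal mice 1 and 4, which remained, still lay above each HFD mouse in the cerebellum list (1.25 and 3.08 against 0.28 to 0.72). The same held for the striatum list (5.28 and 4.41 against 2.57 to 2.70) and the myelin list (6.75 and 6.33 against 5.76 to 6.24). This fit therefore does not separate diet from tissue content either.

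**Figure D5:**
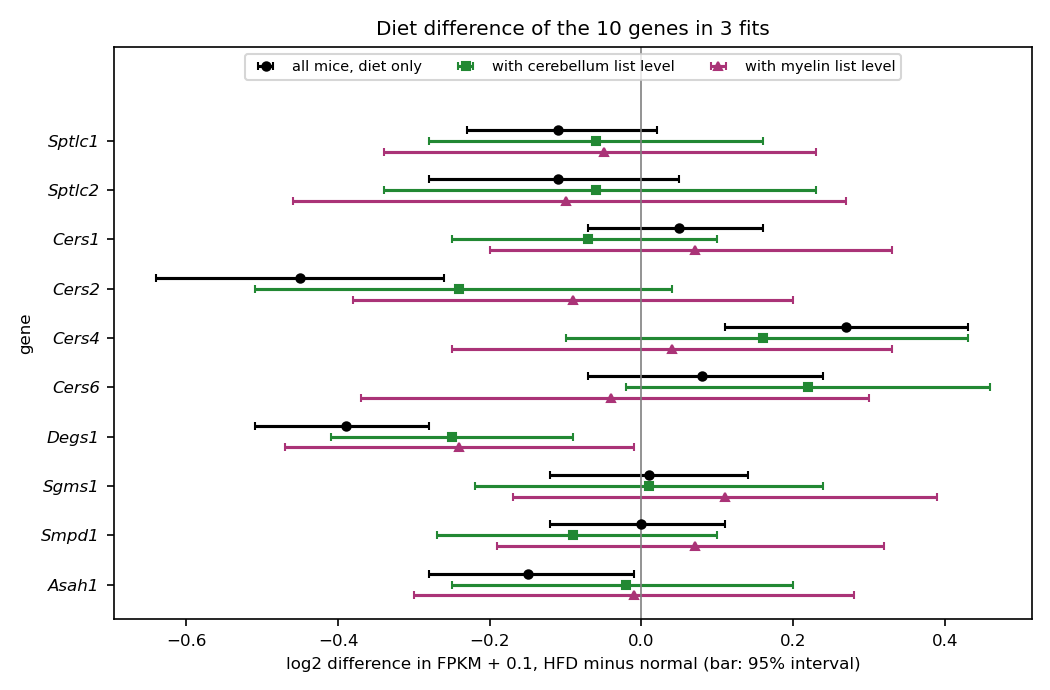
Log2 difference in FPKM + 0.1, HFD minus normal, of the 10 genes in 3 limma fits, with diet alone (black), with the cerebellum list level (green) and with the myelin list level (purple), and bars for the 95% interval. The difference of Cers2 goes from -0.45 to -0.24 and -0.09, that of Cers4 from 0.27 to 0.16 and 0.04, and that of Degs1 from -0.39 to -0.25 and -0.24.

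The genes lie on chromosomes 1, 2, 3, 7, 8, 12, 13 and 19 of GRCm38, with 3 of them (Cers1, Cers4 and Asah1) on chromosome 8. Degs1 (ENSMUSG00000038633.5, chromosome 1, 182275772 to 182282804, minus strand) spans 7033 bases and shares no exon base with another annotated gene. Cers2 (ENSMUSG00000015714.11, chromosome 3, 95314791 to 95323599, plus strand) shares 75 of its 2216 exon bases with Setdb1 and 34 with an antisense transcript, both on the opposite strand. Setdb1, a histone methyltransferase, was 10.1 to 10.4 FPKM in normal mice and 10.6 to 12.1 in HFD mice (0.16, limma adjusted p = 0.0529). Cers4 (ENSMUSG00000008206.16, chromosome 8, 4493026 to 4531680, plus strand) shares 886 of 9475 exon bases with the pseudogene Vmn2r-ps89 on the opposite strand. Cers1 (ENSMUSG00000087408.10, chromosome 8, 70315775 to 70331592, plus strand) also shares 68 bases with Upf1, a factor of nonsense-mediated decay on the opposite strand, which rose (0.29, limma adjusted p = 0.00544). The libraries kept strand, but no source used here states whether reads were assigned by strand.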

How the data were processed

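RNA of 8 cortexes, 1 library per mouse, was measured. Per the methods, the authors checked reads with FastQC, trimmed them (Trimmomatic), mapped them to mm10 (STAR) and computed FPKM by Cuffnorm on the basic GENCODE annotation (GRCm38.p6); no source used here gives tool versions. The deposited FPKM are rounded to 0.1 and sum to 562431 to 639142 per mouse, so read depth is unknown and no counting interval can be given. A second quantification by Salmon was not used here.

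From the deposited FPKM, log2(FPKM + 0.1) was compared between diets with limma 3.58.1 in R 4.3.3 (variance trend, two-sided, Benjamini-Hochberg over the 13982 genes whose mean FPKM reached 1 and that had no 0). Limma took the place of the t-test of the methods. A minimum change of 1.5-fold in either direction (a rise of 50%, or a fall by the same ratio) was counted separately. Summaries used Python 3.11.15 and figures matplotlib 3.10.9. Fold changes of low genes are understated by the added constant. The fit was tested on simulated data with independent noise per gene and changes of 1.5-fold or more. That test covers neither smaller changes nor tissue content that differs between diets. Gene coordinates are from GENCODE M21 on GRCm38, a later release than that of the authors.

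The 10 genes, 5 sphingolipid lists and 11 marker lists were chosen with earlier results of these data known. Genes were named if they belong to the 10, if they passed the test in a sphingolipid list or if they overlap one of the 10. Genes among the 3 most abundant of a marker list could be named too. Cers5, Gal3st1, Shox2, B4galt5, B4galt6, Ugcg and the ganglioside enzymes that did not pass lie outside this rule. They were named after their values were seen. Alternatives were another constant, other filters and scalings, a fit without variance trend, a block on the replicate number, marker list levels as covariates each mouse left out and, chosen after seeing the data, both normal mice with the most cerebellum signal left out. The labels give no batch. The limma p-values weigh a diet difference against the spread among mice of the same diet, and they do not separate diet from tissue content.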

Additional observations from a re-analysis of the deposited data

Results flagged for a closer look

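For the 10 genes and the 15 further sphingolipid genes that passed the test, the 4 values of each diet were examined for a mouse far from the other 3. Of 50 such groups 3 held one, where chance gives about 1 in 20, and none concerned the 10 genes. Degs2 was 2.2 FPKM in HFD mouse 3 and 1.6 to 1.7 in the other HFD mice. Ormdl1 was 4.2 FPKM in HFD mouse 4 against 3.4 to 3.5. Spns2 was 18.7 FPKM in HFD mouse 3 against 14.6 to 14.9.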

How the results depend on the processing

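The 3 calls among the 10 genes kept their direction and side of the threshold with another added constant, other filters, median-ratio or quantile scaling, no variance trend, the replicate block and each mouse left out. No gene of the 10 passed with a minimum change of 1.5-fold in either direction (0). In limma 0 each passed with the cerebellum, striatum or myelin list as a covariate. An unadjusted p below 0.05 was reached there by 1, 0 and 1. Of the 62 sphingolipid genes, 6 passed with the minimum change, 10 with the replicate block, 8 without normal mice 2 and 3, and 0 with each covariate (9, 1 and 8 unadjusted for cerebellum, striatum and myelin). Of all genes, 4626 passed in the main fit, 997 with the minimum change, 3390 with the replicate block and 2736 without normal mice 2 and 3. With the covariates 543, 0 and 6 of all genes passed (3280, 300 and 1973 unadjusted).

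With the cerebellum list, the log2 difference was -0.25 for Degs1, -0.24 for Cers2, 0.16 for Cers4 and -0.07 for Cers1. With the myelin list it was -0.24 for Degs1, -0.09 for Cers2, 0.04 for Cers4, -0.04 for Cers6 and 0.07 for Smpd1. With the striatum list, whose level separates the diets completely, it was -0.29 for Degs1 (standard error 0.28), 0.06 for Cers2, -0.05 for Cers4, 0.03 for Sptlc1, -0.39 for Cers6, 0.12 for Smpd1 and 0.19 for Asah1. Without normal mice 2 and 3 Cers4 was at 0.19 and Cers1 at -0.01. With each mouse left out, Sgms1 ranged from -0.03 to 0.05, Smpd1 from -0.03 to 0.03 and Asah1 from -0.19 to -0.11. The 62 genes then gave 12 to 18 calls, and all genes gave 3292 to 4618. The cause of these shifts was not tested.

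No source used here states that mice with the same replicate number belong together. Across genes, deviations from the diet means of mice with the same number correlated at -0.109 to -0.0275. The highest correlation with a mouse of another number was 0.0556 to 0.0934. Deviations cancel within a diet, so a negative value for the same number forces a positive one elsewhere, and this comparison cannot decide on pairing. With the replicate block the differences of Degs1, Cers2 and Cers4 stayed at -0.39, -0.45 and 0.27. The unknown depth and the rounding limit the genes near 1 FPKM, such as Degs2 and Acer2.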

Other observations

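Of the remaining marker lists, microglia markers such as C1qa and Csf1r gave 0 of 7 genes past the adjusted threshold in limma, with the list at 3.95 to 4.27 (mean log2(FPKM + 0.1)) in normal mice and 4.04 to 4.15 in HFD mice. Oligodendrocyte precursor markers gave 1 higher and 1 lower of 6, with a median difference of -0.062, while 10 of 10 markers of mature myelin were lower. The precursor list was also lower in each HFD mouse, at 3.33 to 3.42 against 3.43 to 3.51 in normal mice. Beside the lists of this paragraph, 33.1% of all genes passed, 15.3% lower and 17.7% higher. Astrocyte markers gave 1 higher, Slc1a2, the main glutamate transporter, and 2 lower of 8. Of 6 endothelial markers 3 fell, among them Cldn5 of the tight junctions, and Ly6c1 rose. All 5 blood markers, with Hbb-bs the most abundant, fell. Choroid plexus markers fell in 2 of 6 and varied by mouse, with the list at 2.36 to 3.30 in normal mice and at 0.93, 0.21, 0.28 and 3.44 in HFD mice 1 to 4.

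Of the ganglioside enzymes that did not pass, St3gal5, which makes GM3, was 35.1 to 40.1 FPKM in normal mice and 40.6 to 47.7 in HFD mice without overlap (0.18, limma adjusted p = 0.0585), and St8sia1, which makes GD3, was 3.4 to 4.4 and 4.6 to 5.0 (0.22, limma adjusted p = 0.0884). Others of the same list that did not pass were at -0.03 for St8sia3, 0.02 each for St3gal2, St3gal3 and St8sia5, and 0.10 for B3galt4. Also not past the test were B4galt6 at 0.19 with overlapping values (limma adjusted p = 0.0607), B4galt5 at 0.03 and Ugcg at -0.06. Cers5 lay lower in each HFD mouse (12 to 12.7 against 13.2 to 13.8 FPKM) with -0.11 (limma adjusted p = 0.0778). These genes were singled out after their values were seen.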
